A study of Homo sapiens with 2 samples.

Results

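The intestinal differentiation genes are 10 genes that mark the absorptive, mucus-secreting and crypt cells of the intestine, described here in 2 gastric cancer (GC) cell lines with and without knockdown of SET7/9. They are the transcription factors CDX1, CDX2 and HNF4A, the goblet cell products MUC2 and TFF3, the enterocyte genes VIL1, CDH17, LGALS4 and FABP1, and the crypt gene OLFM4. Every gene probe whose name in the array files is one of these symbols was taken, which gave 17 probes of the 34123 measured on both arrays and 10 of their 25937 gene names. CDX1, MUC2, TFF3 and FABP1 had several probes, and the other 6 genes had 1 each. Total RNA came from MKN74 and MKN45, both established human GC cell lines, 48 hrs after electroporation with siRNA at 50 nM. Each line was run on 1 two-colour array, with the cells given SET7/9 siRNA in Cy5 and the cells given negative control siRNA in Cy3, so that there were no replicate arrays and the dyes were not swapped. Which of the study's SET7/9 siRNAs was hybridised is not given in the sources used here, and each line stands for itself alone.

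CDX1 and CDX2 are homeobox transcription factors that specify the intestinal epithelium, and HNF4A is a nuclear receptor that works with them in enterocytes. In the healthy stomach these programmes are largely silent, and they appear in intestinal metaplasia and in part of gastric cancers, where CDX2, MUC2, VIL1 and CDH17 are used as markers of the intestinal phenotype. The comparison within each array asks whether these genes moved when SET7/9, a lysine methyltransferase encoded by SETD7, was knocked down, and the comparison of the control channels asks which of them each line holds.

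The letters behind the values are those of the 60-base probes. Those shown belong to genes measured in control cells of both lines (CDX1, MUC2), of MKN45 alone (TFF3, LGALS4, FABP1) or of neither (HNF4A); positions are the array files' own, on GRCh37, and no gene model of that build was used here. The CDX1 probe lies at chr5:149563184-149563243 on the plus strand, and the other CDX1 probe lies further along that strand, at chr5:149563427-149563486. The HNF4A probe covers chr20:43036102-43042379, a span of 6278 bases, so that its 60 bases cross an exon junction. The first MUC2 probe shown covers chr11:1103558-1103831 and also crosses a junction, and the second lies at chr11:1092337-1092396. The TFF3 probe is at chr21:43733595-43733654 on the minus strand. The LGALS4 probe, at chr19:39292766-39292983, and the FABP1 probe, at chr2:88422598-88424046, both cross a junction on the minus strand.
CDX1 A_33_P3289848: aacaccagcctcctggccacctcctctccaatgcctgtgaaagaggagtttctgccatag
HNF4A A_23_P28761: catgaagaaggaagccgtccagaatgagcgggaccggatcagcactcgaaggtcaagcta
MUC2 A_23_P256784: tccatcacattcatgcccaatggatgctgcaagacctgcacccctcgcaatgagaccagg
MUC2 A_33_P3401571: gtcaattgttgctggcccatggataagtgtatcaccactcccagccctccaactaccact
TFF3 A_33_P3334305: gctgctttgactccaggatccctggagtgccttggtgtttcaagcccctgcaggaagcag
LGALS4 A_23_P254917: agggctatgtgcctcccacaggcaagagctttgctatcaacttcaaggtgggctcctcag
FABP1 A_23_P79562: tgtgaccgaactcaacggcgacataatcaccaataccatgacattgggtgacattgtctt

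Both arrays were recorded as lying on 1 slide. The scanner software calls a spot well above background when its signal clears the local background by a margin that differs between channels and arrays; 54.7% of all probes passed in Cy3 and 60.4% in Cy5 in MKN74, and 59.7% and 66.6% in MKN45. A probe was kept for the knockdown ratio where at least 1 channel passed, giving 20673 probes for MKN74 and 22828 for MKN45, and 18581 and 20279 of these passed in both. SETD7 fell at its probe A_24_P251841, from 368.5 in Cy3 to 90.12 in Cy5 in MKN74 and from 197.3 to 51.24 in MKN45, which are log2 ratios of -2.03 ± 0.28 and -1.95 ± 0.28. Its other probe gave 0.24 ± 0.22 and -0.23 ± 0.21, within the 1.5-fold cutoff. The value after ± on a knockdown ratio is the error that the scanner software assigns to it. On a difference between lines it is the root of the summed squares of the errors that the software gives to the channel on each array. Neither is a spread between cultures, and neither covers the scaling of the arrays. The epithelial markers CDH1, EPCAM, KRT8, KRT18, KRT19, CLDN4 and CLDN7 were well above background in all 4 channels (7 of 7). Of 9 stromal and immune markers, 2 were above in Cy3 and 3 in Cy5 in MKN74, and 5 in each channel in MKN45, while COL1A2, COL3A1 and PDGFRB were above in none. Their summed signals were 529.6 and 615.7 in MKN74 and 273.1 and 299.7 in MKN45, and their part in the line differences was not tested.

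In control cells the 10 genes split into a group that both lines held and a group that was measured in MKN45 alone. CDX1, CDX2 and MUC2 were well above background in both lines, at levels within 1.5-fold of each other in Cy3. With the 75th percentile of the channel as the scale, MUC2 probe A_23_P256784 passed 1.5-fold. TFF3, VIL1, CDH17, LGALS4, FABP1 and OLFM4 were well above background in Cy3 in MKN45 and not in MKN74. HNF4A was not above background in Cy3 in either line. The plot of signals by line and channel shows this split. At measured probes the lines lie apart for the group seen in MKN45 alone, and close together for CDX1, CDX2 and MUC2.

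**Figure D1:**
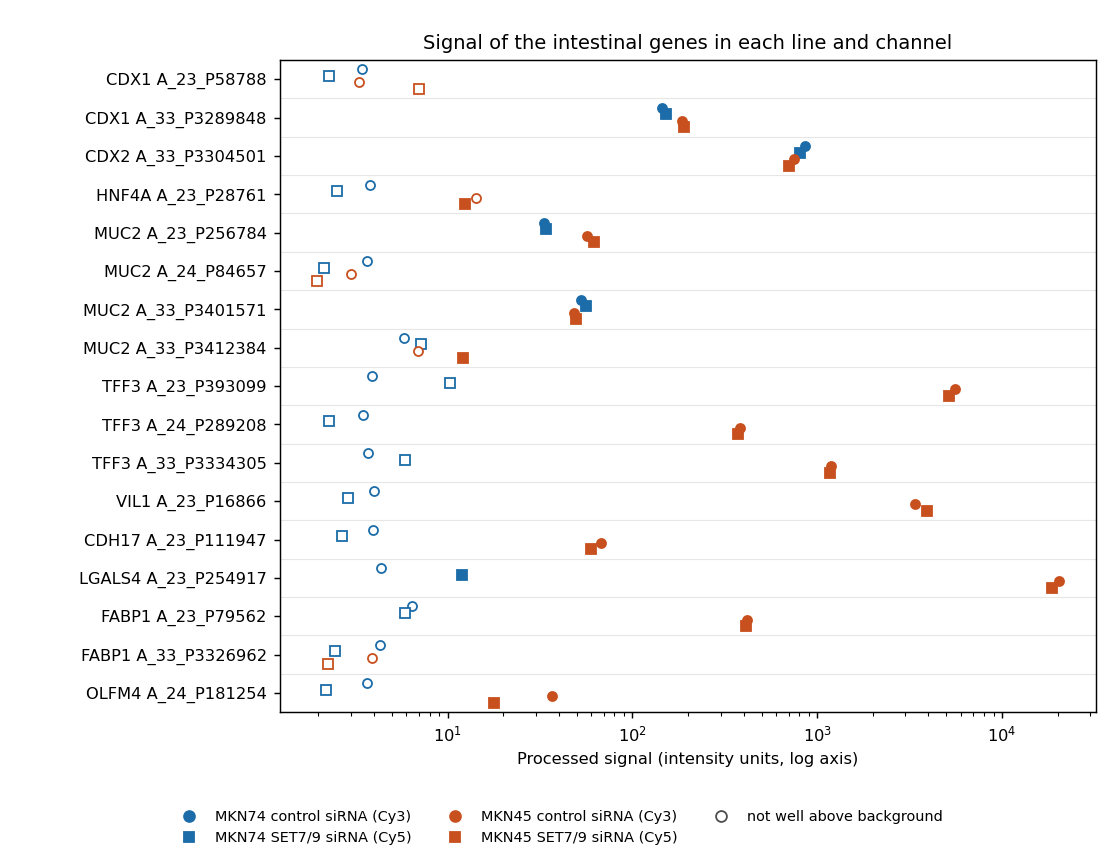
Processed signal of each of the 17 probes on a log axis, in MKN74 (blue) and MKN45 (orange), with control siRNA (circles, Cy3) and SET7/9 siRNA (squares, Cy5); open symbols were not well above background. TFF3, VIL1, CDH17, LGALS4, FABP1 probe A_23_P79562 and OLFM4 have filled orange symbols far to the right of the blue ones, whereas CDX1 probe A_33_P3289848, CDX2 and MUC2 probes A_23_P256784 and A_33_P3401571 have all 4 close together.

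CDX2, the factor most used as an intestinal marker, was well above background in all 4 channels and differed between lines by less than its error. It read 860.5 in control and 806.4 in knockdown cells of MKN74, and 748 and 702.1 in MKN45. After the arrays were scaled to each other its log2 level in control cells was 0.06 ± 0.20 higher in MKN45, and it was -0.02 with the 75th percentile as the scale. The knockdown log2 ratio was -0.09 ± 0.20 in both MKN74 and MKN45.

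CDX1, its paralogue, was measured at 1 of its 2 probes. At A_33_P3289848 the signals were 144 in control and 151.2 in knockdown cells of MKN74, and 186.6 and 189.7 in MKN45. Control cells of MKN45 were higher by 0.29 ± 0.21 on the log2 scale, within the 1.5-fold cutoff. With the 75th percentile of the channel as the scale the difference was 0.56, still within it. The log2 ratios of the knockdown were 0.07 ± 0.21 in MKN74 and 0.02 ± 0.21 in MKN45. The other probe, A_23_P58788, was not well above background in any channel, with signals from 2.273 to 6.996, so that it measured nothing that could be set against the first.

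HNF4A, with a single probe, was seen in 1 of 4 channels. Its signals in MKN74 were 3.795 in control and 2.51 in knockdown cells, neither well above background. In MKN45 they were 14.34 in control cells, also not well above background, and 12.5 in knockdown cells, which passed in the Cy5 channel. The ratio of -0.20 ± 0.51 in MKN45 therefore has a control side that was not measured, and no bound on the difference between lines came out above 1-fold.

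MUC2, the gel-forming mucin that goblet cells secrete, had 4 probes that did not give 1 answer between lines. At A_23_P256784 the signals were 33.19 in control and 34.11 in knockdown cells of MKN74, against 56.53 and 62.38 in MKN45. At A_33_P3401571 they were 52.76 and 56.05 in MKN74, against 48.45 and 49.38 in MKN45. Control cells of MKN45 were thus 0.30 ± 0.31 higher at the first probe and 0.56 lower at the second (-0.56 ± 0.25), both within 1.5-fold. With the 75th percentile of the channel as the scale these became 0.95, past 1.5-fold, and 0.06. The direction at the second probe thus turned, while the first stayed above it. In Cy5 the second probe was at -0.62 ± 0.22, past 1.5-fold, and at -0.01 with that scale.

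The knockdown ratios of both measured MUC2 probes were smaller than their errors. The ratios were 0.04 ± 0.30 and 0.09 ± 0.23 in MKN74, and 0.14 ± 0.23 and 0.03 ± 0.24 in MKN45. Probe A_33_P3412384, at chr11:1080924-1080983, was above background only in Cy5 of MKN45, where it read 12.08 against 6.944 in Cy3, a log2 ratio of 0.80 ± 0.62 with no bound above 1-fold. The last, A_24_P84657, was not well above background in any channel.

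TFF3, the intestinal trefoil peptide that goblet cells release with mucin, was measured in MKN45 at all 3 of its probes and in MKN74 at none. At A_23_P393099 the signals were 3.888 and 10.27 in control and knockdown cells of MKN74, and 5539 and 5133 in MKN45; the array files place only 37 bases of this probe on the genome. At A_33_P3334305 they were 3.696 and 5.92 in MKN74, and 1182 and 1167 in MKN45. At A_24_P289208 they were 3.473 and 2.272 in MKN74, and 383.4 and 373.7 in MKN45. Where a line was not well above background its level has only an upper limit, so that the difference is given as a lower bound: in control cells TFF3 was at least 280-fold, 59-fold and 18.4-fold higher in MKN45 at these probes in turn. Such bounds set the dim side to the higher of its own level and the lowest level called well above background in that channel, and hold for this processing. With normexp background correction, which adds an offset of 50 to every signal, the same differences were 6.57, 4.53 and 2.83 on the log2 scale, below the bounds. The same dye stands on both sides of a line difference, whereas without a dye swap the dye cannot be told apart from the siRNA in a knockdown ratio. In RNA from whole cultures, fewer cells that express a gene and less of its RNA in each cell cannot be told apart.

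The 3 TFF3 probes also gave 1 answer on the knockdown in MKN45. Their log2 ratios were -0.11 ± 0.20, -0.02 ± 0.20 and -0.04 ± 0.20, each smaller than its error. In MKN74 no ratio of TFF3 had a measured side.

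Like TFF3, each enterocyte gene had a probe well above background in control cells of MKN45 and none in those of MKN74. VIL1 encodes villin, which bundles actin in the core of microvilli. Its signals were 4.015 and 2.891 in control and knockdown cells of MKN74, and 3381 and 3914 in MKN45, at least 172-fold higher in control cells of MKN45, or 5.91 on the log2 scale with normexp, which is less than that bound. In MKN45 its knockdown ratio was 0.21 ± 0.20, the highest of the probes with both channels measured and within 1.5-fold.

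LGALS4, a galectin of the intestinal epithelium that binds glycans at the apical membrane, had the largest bound between lines in Cy3 of the 17 probes. Its signals were 4.367 in control and 12.05 in knockdown cells of MKN74, and 20210 and 18620 in MKN45. In control cells the line difference was at least 954-fold. In knockdown cells both lines were measured, since the Cy5 spot of MKN74 passed, and MKN45 was higher by 10.24 ± 0.34 on the log2 scale, or 1209-fold. With normexp the log2 differences were 8.29 in control and 7.89 in knockdown cells, lower than these. The knockdown ratio was -0.12 ± 0.20 in MKN45. In MKN74 it was 1.46 ± 0.85, but its control side was not well above background, and the bound did not reach 1-fold.

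FABP1, which carries fatty acids in enterocytes and hepatocytes, was measured in MKN45 at A_23_P79562. There the signals were 6.433 and 5.922 in MKN74 and 418.9 and 414 in MKN45, at least 20.2-fold higher in control cells, and 2.86 on the log2 scale with normexp, which is less than that bound. The knockdown ratio in MKN45 was -0.02 ± 0.20. Its other probe, A_33_P3326962, which the files assign to a different transcript, was not well above background in any channel. At chr2:88422714-88422773, it lies within the stretch that the junction of A_23_P79562 skips, so that the probes do not read the same bases.

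CDH17, the liver-intestine cadherin, was printed 10 times on each array, which gives a spread between spots. Its mean signals were 3.959 and 2.676 in MKN74, with no spot above background in both channels, and 67.36 and 60.01 in MKN45, where all 10 spots passed in both. Control cells of MKN45 were at least 2.63-fold higher, and the difference was 0.99 on the log2 scale with normexp, again below the bound. In MKN45 the mean log2 ratio over the spots was -0.16 with an SD of 0.17, from -0.50 to 0.14, and 9 of 10 spots were below 0; the spots share 1 pair of RNA samples and are not replicates of the knockdown.

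OLFM4, a secreted glycoprotein of intestinal crypt cells, was the member with a knockdown ratio past the cutoff in both measured channels. Its signals were 3.686 and 2.192 in MKN74, neither well above background, and 36.62 in control and 17.82 in knockdown cells of MKN45. The log2 ratio in MKN45 was -1.04 ± 0.32, a level 2.05-fold lower with SET7/9 siRNA. It rests on 1 spot of 1 array, and with normexp background correction and loess in place of the scanner's processing it was -0.30, within 1.5-fold. Between the lines the bound in control cells was 1.31-fold.

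**Figure D2:**
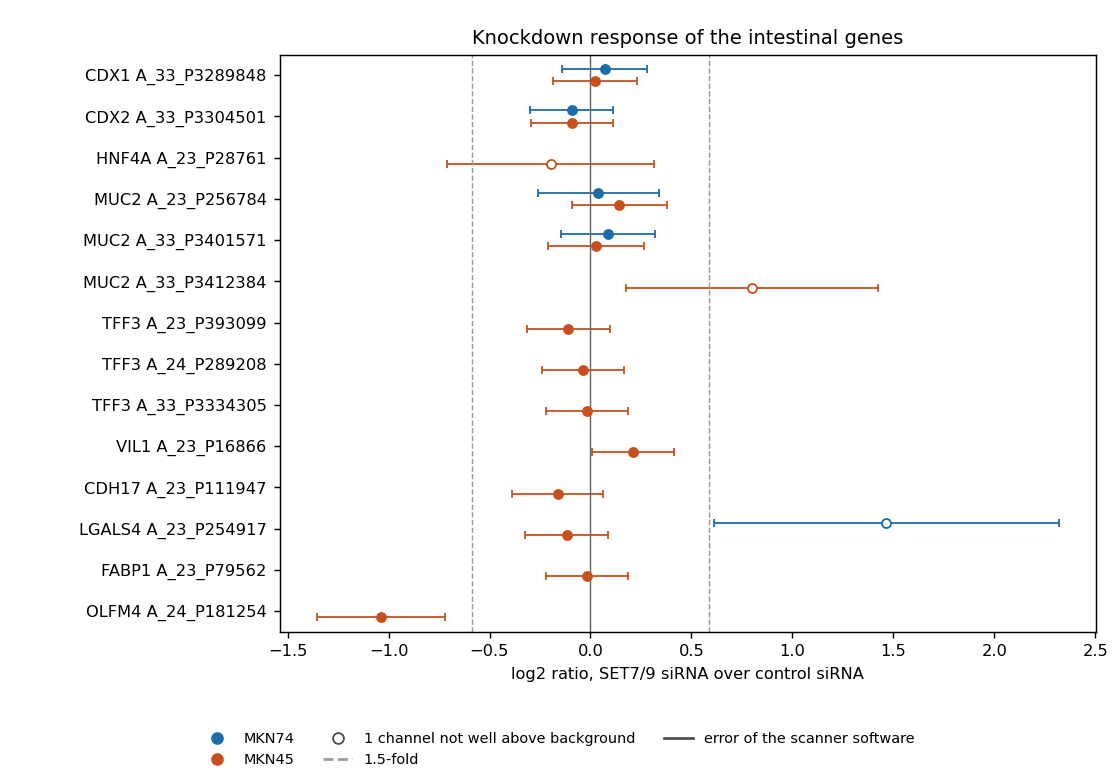
log2 ratio of SET7/9 siRNA over control siRNA for each probe with a channel well above background, in MKN74 (blue) and MKN45 (orange), with the error of the scanner software; dashed lines mark 1.5-fold and open symbols have 1 channel not well above background. Of the filled symbols OLFM4 in MKN45, at -1.04, is past the lines, and the others lie between -0.16 and 0.21; the open symbols past the lines are LGALS4 in MKN74 and MUC2 probe A_33_P3412384 in MKN45.

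The knockdown ratios were counted over the set against a cutoff of 1.5-fold. In MKN74, 5 of the 17 probes were kept, of which 0 were lower and 1, LGALS4, was higher; over all probes kept, 1.76% were lower and 3.78% higher. In MKN45, 14 were kept, of which 1 was lower (OLFM4) and 1 higher (MUC2 A_33_P3412384); over all probes kept, 1.97% were lower and 4.81% higher. Both probes counted as higher had a control side that was not measured. The 4 probes of MKN74 and 12 of MKN45 with Cy3 and Cy5 both measured had medians of 0.05 and -0.03, and OLFM4 was the 1 past the cutoff. Over all probes so measured, the shares past the cutoff were 1.45% down and 0.64% up in MKN74, and 1.62% down and 0.814% up in MKN45. With OLFM4 left out, the MKN45 ratios ran from -0.16 to 0.21.

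The only replicated test that the design allows takes both arrays as replicates of the knockdown, with 1 residual degree of freedom. Of the 5 member probes kept on both arrays, 0 passed in limma at an adjusted p of 0.05 and 0 at an unadjusted p of 0.05, with adjusted p-values in limma from 0.516 (LGALS4) to 0.751 (CDX1). The LGALS4 value rests in part on its MKN74 ratio, whose control side was not well above background. Of all 19595 probes tested, limma called 0 after adjustment (0%), and 2569 (13.1%) had an unadjusted p under 0.05. With 2 arrays, a p-value that misses the threshold does not show that a member kept its level.

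Detection in control cells was counted over all 17 probes, since keeping a probe through MKN45 alone favours a higher value there. It does not fix the direction: in Cy5, MUC2 A_33_P3412384 was kept in this way and was at -0.05. In Cy3, 8 of 17 probes (47.1%), of 6 genes, were well above background in MKN45 only, 0 in MKN74 only, and 4 in both. Over all 34123 probes, 8.68% were above in MKN45 only, 3.62% in MKN74 only, and 51% in both. In both channels of MKN45 and in neither of MKN74, there were 7 of the 17, against 5.65% of all probes, and the reverse held for 0 of the 17, against 1.9%. The probes of a gene share its transcript, so that the 3 of TFF3 are not independent. For the probes kept in 1 channel, the counts past 1.5-fold describe the filter as well as the genes. The 8 of 12 that came out higher in Cy3 were kept through MKN45 alone, which favours that direction, and nothing is read from them. OLFM4 is among them with a bound of only 1.31-fold. In Cy5, 9 of 14 came out higher and 1, the MUC2 probe named above, lower. Of those 9, 8 were kept through MKN45 alone, and neither HNF4A, with no bound, nor OLFM4, with a bound of 1.10-fold, is shown to pass 1.5-fold. Over all probes kept, 30.2% were higher and 32.6% lower in Cy3, and 30.2% and 33.1% in Cy5. Of the 4 probes measured in both lines in Cy3, 0 were past 1.5-fold either way, against 33.3% lower and 23.3% higher of all such probes. In Cy5 there were 5, with 1 lower and 1 higher (LGALS4), against 34.7% and 23.6%.

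**Figure D3:**
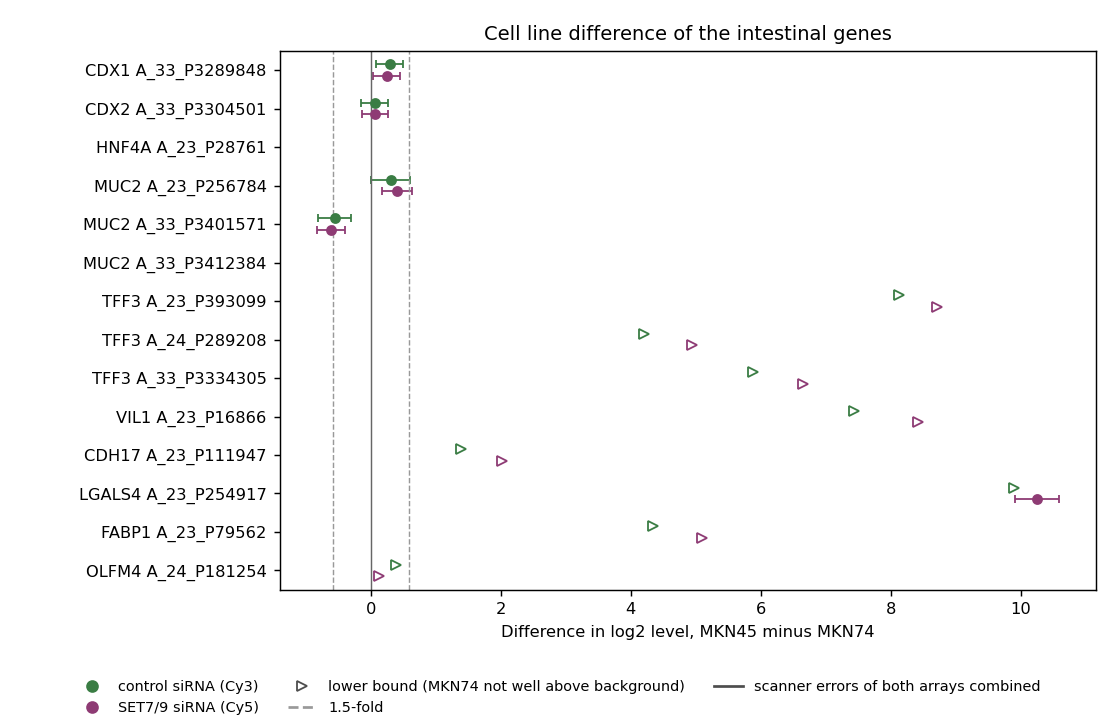
Difference in log2 level between MKN45 and MKN74 for each member probe with a channel well above background, with control siRNA (green, Cy3) and SET7/9 siRNA (purple, Cy5); circles, with the scanner errors of both arrays combined, were measured in both lines, open triangles are lower bounds, and dashed lines mark 1.5-fold. CDX1 and CDX2 lie between the dashed lines, as do the MUC2 probes with a circle except A_33_P3401571 in Cy5 at -0.62, and TFF3, VIL1, LGALS4 and FABP1 have bounds from 18.4-fold to 954-fold in Cy3; a row without a symbol had no bound above 1-fold.

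Lists of other genes active in intestinal cells, not all of them particular to the intestine, were counted in the same way. The 6 lists of 114 genes on the array (transcription factors, enterocyte and brush border, goblet, Paneth, stem and enteroendocrine cells) held 141 probes. Of these, 28.4% were above background in Cy3 in MKN45 only and 2.13% in MKN74 only, against 8.68% and 3.62% of all probes. The share in MKN45 only was 46.7% for goblet genes and 42.4% for transcription factors. It was 22.2% for Paneth and for enteroendocrine genes, 20% for stem cell genes and 19.6% for enterocyte and brush border genes. Lists outside the intestine gave 23.1% (gastric), 22.2% (hepatocyte), 20% (stromal and immune) and 0% (epithelial). Among 24 transcription factors, 20 had a probe above in MKN45 and 11 in MKN74. FOXA2 and GATA6, partners of CDX2 and HNF4A in gut endoderm, were at least 198-fold and 174-fold higher in control cells of MKN45. HES1, the Notch target that restrains secretory fate, was lower by 1.32 on the log2 scale (-1.32 ± 0.21). Bounds between lines for these and the other listed genes hold for the main processing. With normexp the differences of TFF3, VIL1, LGALS4, FABP1 and CDH17 fell below their bounds, and such values are not given for listed genes.

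Of 14 goblet cell genes 12 were above background in Cy3 in MKN45 and 6 in MKN74. AGR2, a disulfide isomerase needed for MUC2 processing, was at least 4008-fold higher in MKN45, SPINK4 at least 620-fold and AGR3 at least 436-fold. RETNLB was at -0.66 ± 0.24, past 1.5-fold in the other direction.

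Of 40 enterocyte and brush border genes 15 were above in MKN45 and 7 in MKN74. CEACAM5 was at least 423-fold and CA2 at least 175-fold higher in MKN45. EZR, the microvillar linker ezrin, went the other way at -3.76 ± 0.20. The probes of CEACAM7 disagreed, A_24_P228302 being at least 119-fold higher in MKN45 and A_33_P3254844 at least 19-fold lower. The brush border hydrolases ALPI, SI, LCT, MEP1A and MEP1B, with FABP2 and the receptor GUCY2C, were among the 17 genes of this list not well above background in any of the 4 channels. The peptidase DPP4, also of the brush border, was above in all 4, with 29.48 in control cells of MKN74 and 365.6 in those of MKN45, and ANPEP passed in Cy5 of MKN45.

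Of 13 stem cell genes 12 were above background in MKN45 and 8 in MKN74. CD44 was at least 1483-fold and SMOC2 at least 10.3-fold higher in MKN45, and LGR5, the receptor that marks crypt base stem cells, at least 2.18-fold. AXIN2 and ZNRF3, both targets of Wnt signalling, were lower, at -2.40 ± 0.23 and -2.40 ± 0.21 for their probes A_23_P148015 and A_23_P427502. Of 9 Paneth cell genes 2, MMP7 and PLA2G2A, were above in MKN45 and 0 in MKN74. Of 14 enteroendocrine genes 3 were above in each line, of which 2 were above in that line only.

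**Figure D4:**
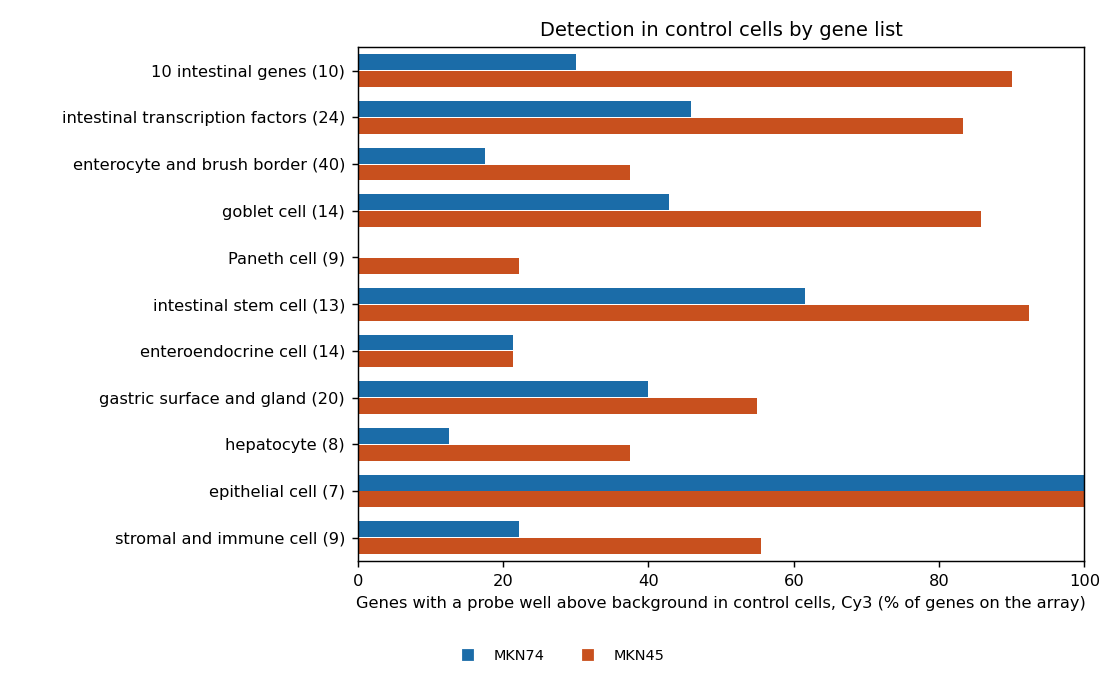
Share of the genes of each list with a probe well above background in control cells (Cy3), in MKN74 (blue) and MKN45 (orange), with the number of genes on the array in brackets. The 10 intestinal genes stand at 3 in MKN74 and 9 in MKN45, and the epithelial markers at 7 of 7 in both. The enteroendocrine genes stand at 3 in each line, of which 2 were above in that line only.

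With the knockdown, 3 of the 39 listed probes measured in both channels in MKN74 were lower by 1.5-fold and 1 was higher, where 1.45% and 0.64% of all such probes were. In MKN45, 4 of 76 were lower and 1 was higher, where 1.62% and 0.814% of all were. FABP6, the ileal bile acid carrier and a relative of FABP1, was lower in both lines. It was at -1.23 ± 0.42 from signals of 24.74 to 10.57 in MKN74 and at -0.92 ± 0.30 from 35.99 to 19.01 in MKN45. Each value rests on 1 spot, and values with normexp are not given for the listed genes. In MKN74 the others were SYTL2 (-0.64 ± 0.28), ASCL2 (-0.62 ± 0.21) and FOXA1, which was higher (0.85 ± 0.30). In MKN45 they were SPINK4 (-0.89 ± 0.22), SYP (-0.68 ± 0.44), EPHB2 and MMP7, a metalloproteinase of Paneth cells, which was higher (1.02 ± 0.22). EPHB2 passed at 1 of 3 probes, with -0.84 ± 0.27, -0.44 ± 0.22 and -0.22 ± 0.21. EPHB2 was the 1 gene of the stem cell list that passed in MKN45. The 17 probes of that list measured there in both channels had a median of -0.04.

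The promoters were read for letters that CDX, HNF4 and GATA factors, all active in gut epithelium, are known to bind; of these the GATA factors are not among the 10 genes. RefSeq promoters on GRCh38.p14 were given for 6 of the 10 genes (7 promoters, 2 of them of HNF4A), and the 250 bases before each annotated start were searched on both strands. The CDX motif TTTATG was in 2 of the 7, against 9.64% of 35116 promoters. It lay 89 bases before the start of FABP1 and 176 bases before that of MUC2, at chr2:88128063-88128312 on the minus strand and chr11:1074624-1074873 on the plus strand. These 2 windows are shown because they hold the match. FABP1 was measured in MKN45 alone and MUC2 in both, and whether CDX2 bears on their levels was not tested. LGALS4, at chr19:38812946-38813195 on the minus strand, stands beside them as the gene with the largest bound in Cy3 and no match. Capitals mark the motif, which in both windows is read from the opposite strand.
FABP1: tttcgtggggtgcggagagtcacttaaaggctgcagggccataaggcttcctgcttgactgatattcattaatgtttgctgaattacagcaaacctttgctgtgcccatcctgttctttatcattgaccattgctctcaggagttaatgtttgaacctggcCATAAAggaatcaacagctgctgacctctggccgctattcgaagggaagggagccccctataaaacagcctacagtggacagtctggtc
MUC2: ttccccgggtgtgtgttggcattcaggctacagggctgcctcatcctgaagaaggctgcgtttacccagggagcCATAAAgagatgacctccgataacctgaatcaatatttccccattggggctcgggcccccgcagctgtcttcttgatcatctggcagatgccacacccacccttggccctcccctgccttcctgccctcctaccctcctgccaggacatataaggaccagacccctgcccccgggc
LGALS4: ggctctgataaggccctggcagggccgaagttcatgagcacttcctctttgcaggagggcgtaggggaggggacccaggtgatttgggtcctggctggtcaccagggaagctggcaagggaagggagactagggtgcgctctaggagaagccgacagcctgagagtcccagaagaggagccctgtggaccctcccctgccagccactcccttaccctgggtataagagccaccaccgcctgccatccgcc
The GATA motif AGATAA was in 2 of the 7, those of CDX2 and 1 of HNF4A, against 9.17% of all promoters, and the HNF4 half-site CAAAGT was in 0, against 10.3%. No match overlapped another motif. A match describes the letters of the window and is not a binding site.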

How the data were processed

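The members and gene lists were chosen with earlier results of these data known. Deposited scanner files came from Agilent Feature Extraction 10.7.3.1, as the submitters' processing notes name it. They hold linear intensity of each spot and channel, background-subtracted and dye-normalized by the authors' software, with surrogate values for signals at background. They also hold the deposited log10 ratio (Cy5 to Cy3) and the error assigned to it. The values deposited as a log2 ratio table were within 0.01 of the values used here for 99.58% (MKN74) and 99.38% (MKN45) of its entries.

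Ratios were converted to log2, spots flagged as outliers (549 and 534) and control spots were dropped, no gene spot being saturated (0), and a probe's spots were averaged. A channel passed where at least 50% of spots were well above background. Levels were log2 intensity per channel after Aquantile between arrays (limma 3.58.1, R 4.3.3). The cutoff was 1.5-fold. limma fitted both arrays against 0 with Benjamini-Hochberg adjustment. All members were named at every probe; of other lists, genes past the cutoff with both sides measured, and up to 3 in each direction between lines, less 1 item that is not reported here. Alternatives covered background correction, scaling, filters, cutoff, outliers and probe choice. The steps were tested on simulated data. Sequences came from the array files and RefSeq; Python 3.11.15 and matplotlib 3.10.9 were used.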

Additional observations from a re-analysis of the deposited data

How the results depend on the processing

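With 1 array per line, depth is limited by signal over background, and the member probes kept in MKN74 belong to CDX1, CDX2, MUC2 and LGALS4. No paired analysis was possible because the lines share only replicate number 1, and within an array the ratio itself pairs knockdown and control; leaving an array out leaves no residual degree of freedom. Of 70 counts of members under an alternative, 53 stayed within 1.5 times the main count, 17 did not and 0 reversed. With no filter on dim probes, the knockdown counts were 1 lower (0 in the main setting) and 3 higher (1) in MKN74 and 2 higher (1) in MKN45. With normexp they were 0 higher in MKN74, 0 lower and 0 higher in MKN45, and 0 lower (1) between lines in Cy5. With the deposited log2 ratios, and with both sides well above background, 0 were higher in MKN74 and 0 in MKN45. Requiring both sides also left 0 (8) higher between lines in Cy3 and 1 (9) in Cy5, since MKN74 was dim at the others. At 2-fold, 0 were higher in MKN45 and 0 lower in Cy5; with the 75th percentile as the scale 0 were lower in Cy5; with the brightest probe of a gene 0 were higher in MKN45. Among single values, 23 of 45 moved with normexp and 9 of 26 with the 75th percentile, which shifted the median Cy3 difference of all probes from -0.05 to 0.15. None of the single values past 1.5-fold changed sign (0 reversed). Of those within 1.5-fold, differences between lines turned sign with the 75th percentile for CDX2 (0.06 to -0.02 in Cy3 and to -0.03 in Cy5), MUC2 A_33_P3401571 in Cy3 (-0.56 to 0.06) and MUC2 A_33_P3412384 in Cy5 (-0.05 to 0.92, and 0.03 with normexp). With normexp the knockdown ratio turned for CDX2 (-0.09 to 0.09 in MKN74 and to 0.06 in MKN45) and TFF3 A_33_P3334305 (-0.02 to 0.02 in MKN45). limma called 0 members under each alternative, with 1 at an unadjusted p under 0.05 in limma without the filter, and 0 of all 19595 probes in the main setting against 1708 with normexp. The causes of these changes were not tested, apart from those given.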

Other observations

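Gastric and liver genes belong to no intestinal list and were counted in the same way. Of 20 genes of the gastric surface and glands, 8 were well above background in Cy3 in MKN74 and 11 in MKN45, 5 genes in MKN45 only and 2 in MKN74 only. By probes these were 6 and 3 of 26, where 8.68% and 3.62% of all probes were. VSIG1, SOX2 and CLDN18 were at least 146-fold, 48.5-fold and 43.7-fold higher in control cells of MKN45, and TFF1, the gastric relative of TFF3, was measured in both lines and was higher by 6.04 ± 0.23 on the log2 scale. GAST, which encodes gastrin, was at least 16.8-fold lower in MKN45, and PSCA was at -1.38 ± 0.20. Of 8 hepatocyte genes 1 was above in MKN74 and 3 in MKN45, with 2 of their 9 probes above in MKN45 only. TTR was at least 4.89-fold higher there. The bounds of gastric and liver genes hold for the main processing, and their values with normexp are not given.

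With SET7/9 knockdown, PGC, which encodes pepsinogen C, was at -0.79 ± 0.37 in MKN74 and -0.65 ± 0.38 in MKN45 at its probe A_33_P3370714, from control signals of 28.7 and 23.48. At its other probe, A_23_P7965, the ratio was -0.01 ± 0.38 in MKN74, and in MKN45 the control side was not well above background. PSCA was at -0.68 ± 0.21 in MKN45 and, within 1.5-fold, at -0.40 ± 0.21 in MKN74. No other gastric gene measured in both channels was past 1.5-fold.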
